A study of Mus musculus with 10 samples.

Results

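The 10 genes described here are 5 that encode subunits of the transcription factor AP-1 (Fos, Fosb, Fosl1, Jun and Junb) and 5 further genes that respond to the same stimuli (Egr1, Atf3, Ier2, Ier3 and Klf6). They were chosen by name, because both cell isolation and lysophosphatidic acid (LPA) can act on such genes, and they are 10 of the 35275 genes in the expression table. Each name matched a single protein-coding gene, and all 10 averaged 0.1 FPKM or more, the level required for testing, which 15729 genes reached. FPKM values are fragment counts scaled to gene length and library size, so that levels can be compared between genes.

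AP-1 is a dimer of a FOS protein with a JUN protein, or of JUN proteins, that binds DNA and switches on genes of growth, migration and wound repair. Its subunits belong to the immediate early genes, which are transcribed within minutes of a stimulus and without new protein synthesis, and whose RNA decays quickly. Growth factors reach them through the MAP kinases ERK, JNK and p38. LPA is a phospholipid that acts on G protein-coupled receptors and, through ERK, on the same genes. Taking a tissue apart is also known to induce them before RNA is fixed.

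RNA of jejunal epithelial cells came from 10 adult mice of strain C57BL/6, all VillinCreERT2;MYO5Bflox/flox, in which the villin promoter restricts the inducible Cre to the epithelium. All 10 samples are from day 4, and the study's methods place collection 4 days after tamoxifen. The 3 controls (mouse numbers 2, 4 and 5) were given corn oil and were not induced. The 4 vehicle knockouts (3, 5, 6 and 7), induced to lose MYO5B, received 2 mg of tamoxifen once, and the vehicle of LPA, BSA in PBS. The 3 LPA knockouts (1, 4 and 5) were given the same tamoxifen dose and LPA into the peritoneum, at 3 mg/kg once daily over 4 days per the study's methods. The effects of tamoxifen and of MYO5B loss therefore cannot be told apart in the comparison with controls, and uninduced mice with LPA were not analysed here. Cells of every mouse were lifted with micro forceps in ice-cold PBS with EDTA and put into TRIzol, and no library of undisturbed tissue was analysed here, so the level that isolation alone gives was not measured. The notes on LPA knockout 1 name both vehicle and LPA. It was kept in the group its title gives.

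Between 10949420 and 24470409 reads lay on genes in each library. Control mouse 2 and vehicle knockout 3 stood apart, with 12242 and 12601 genes detected against 17309 to 18267 in the other 8 libraries, and with 17.4% and 18.05% of reads on mitochondrial genes against 1.98% to 3.50%. Values without these libraries are given beside the results of the 10 members that they change, and list genes that pass only without them are named with their list. The labels call the mice male, but the libraries of vehicle knockout 3 and LPA knockout 1 held Xist at 8.41 and 15.1 FPKM and no read on 4 Y-linked genes. Epithelial markers were abundant, with Epcam between 628 and 1151 FPKM, and the lowest summed level of 12 such genes was 7143 FPKM. Summed over 20 leukocyte genes, the level was 465 to 661 FPKM in controls, 28.0 to 201 FPKM in vehicle knockouts and 80.0 to 104 FPKM in LPA knockouts. Myo5b itself was lower in each induced library (10.3 to 13.6 FPKM) than in each control library (16.5 to 32.0 FPKM), a log2 fold change of -0.96 for vehicle knockouts against controls (standard error 0.28, limma's adjusted p = 0.115).

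RefSeq promoter windows on GRCm38.p6 were on hand for 7 of the 10 genes, all but Ier2, Fosl1 and Egr1. The 5 printed here are the Fos and Jun family promoters and that of Klf6, because these genes took different courses across the groups. Each window is the 250 bases before the transcription start, written 5′ to 3′ on the gene's own strand, and the capitals mark TGACG (the core of a cAMP response element, both strands searched), TGACATCA (the AP-1-like site known from the JUN promoter, both strands) or TATAAA (the TATA box, gene strand).
Fos, chr12:85473640-85473889 (plus strand): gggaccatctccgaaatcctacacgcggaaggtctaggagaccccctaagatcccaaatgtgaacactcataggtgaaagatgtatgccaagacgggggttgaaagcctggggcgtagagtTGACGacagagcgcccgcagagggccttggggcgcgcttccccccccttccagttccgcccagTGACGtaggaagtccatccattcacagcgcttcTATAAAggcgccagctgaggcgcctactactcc
Fosb, chr7:19310046-19310295 (minus strand): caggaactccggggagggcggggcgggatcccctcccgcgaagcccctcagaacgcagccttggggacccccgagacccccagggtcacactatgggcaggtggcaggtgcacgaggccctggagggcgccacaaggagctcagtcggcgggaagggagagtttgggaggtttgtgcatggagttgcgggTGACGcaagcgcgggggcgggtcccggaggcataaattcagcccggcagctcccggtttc
Junb, chr8:84978749-84978998 (minus strand): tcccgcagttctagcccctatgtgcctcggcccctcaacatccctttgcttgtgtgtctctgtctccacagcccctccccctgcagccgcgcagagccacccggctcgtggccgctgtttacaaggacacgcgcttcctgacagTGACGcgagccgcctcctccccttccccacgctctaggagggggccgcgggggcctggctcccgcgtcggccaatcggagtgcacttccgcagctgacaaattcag
Jun, chr4:95052223-95052472 (minus strand): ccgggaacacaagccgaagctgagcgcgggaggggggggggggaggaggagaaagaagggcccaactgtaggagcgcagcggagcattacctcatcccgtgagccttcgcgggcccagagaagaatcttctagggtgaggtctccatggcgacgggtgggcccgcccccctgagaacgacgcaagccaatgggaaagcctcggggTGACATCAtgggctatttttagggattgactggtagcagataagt
Klf6, chr13:5861239-5861488 (plus strand): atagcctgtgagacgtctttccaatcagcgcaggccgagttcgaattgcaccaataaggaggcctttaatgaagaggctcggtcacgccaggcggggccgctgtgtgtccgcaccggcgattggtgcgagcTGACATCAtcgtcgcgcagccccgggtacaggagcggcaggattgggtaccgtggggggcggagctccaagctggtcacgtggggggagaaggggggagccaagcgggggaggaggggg

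The Fos window held TGACG 129 and 66 bases before the start and TATAAA 33 bases before it. Fosb and Junb held TGACG once each, 60 and 106 bases before the start, and Atf3, whose window is not printed, held it 7 bases before the start on the other strand. TGACG occurred in 17.8% of 32851 promoter windows of the same length. Jun and Klf6 held TGACATCA, at 45 and 119 bases before the start, and 2.93% of all windows held it. TATAAA occurred in 7.59% of all windows. The full sites TGACGTCA (1.55% of all windows) and TGACTCA (4.46%) occurred in none of the 7 windows. Nor did the CArG box, which serum response factor binds (1.47%). Only the windows were searched. A site further upstream, or one near Egr1, Ier2 or Fosl1, which had no window, would not have been found. The letters searched for were chosen after the sequences had been read, and they describe the windows only.

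Levels of the 10 genes spanned a wide range. Over all libraries Junb (mean 82.8 FPKM), Ier2 (63.0), Klf6 (60.8) and Fos (56.2) were the most abundant. They were followed by Atf3 (24.1), Jun (20.2) and Ier3 (11.7), and then by Egr1 (3.89), Fosl1 (1.66) and Fosb (0.892). Junb stood at rank 955 among the 15729 genes tested and Fosb at rank 10804. Within a group, the lowest and highest library of a gene differed by as little as 1.10-fold (Egr1 in controls) and as much as 6.92-fold (Atf3 in vehicle knockouts), leaving aside Fosl1, which had no read in control 2.

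**Figure D1:**
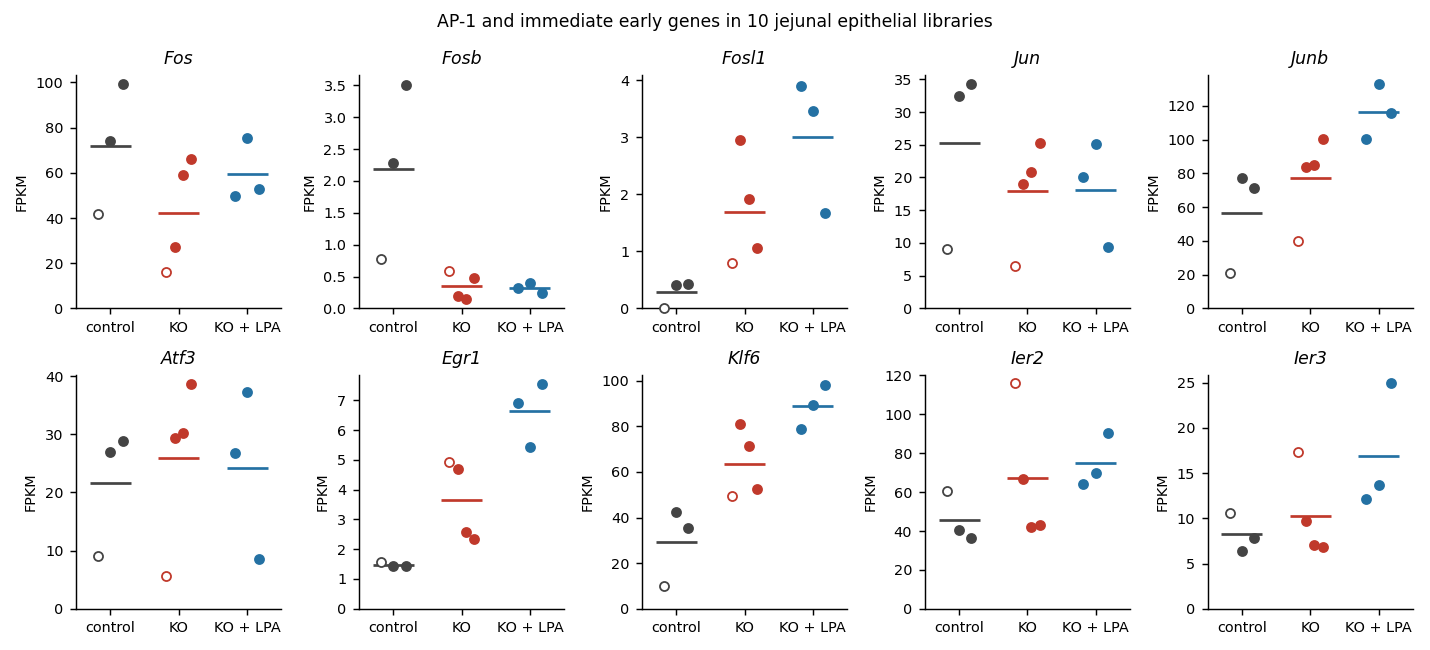
FPKM (y axis, linear, from 0) of the 10 genes in controls, vehicle knockouts (KO) and LPA knockouts (KO + LPA). Each point is 1 library, bars are group means, and open points are control 2 and vehicle knockout 3. Egr1 lay between 1.43 and 1.57 FPKM in controls and between 5.44 and 7.55 FPKM in LPA knockouts.

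Fos, the prototype FOS subunit, stood at 42.0, 74.1 and 99.3 FPKM in controls 2, 4 and 5. Its level was 16.1, 27.2, 58.8 and 66.0 FPKM in vehicle knockouts 3, 5, 6 and 7, and at 49.8, 75.3 and 53.0 FPKM in LPA knockouts 1, 4 and 5. All 3 groups overlapped. The log2 fold change was -0.90 for vehicle knockouts against controls (standard error 0.50, limma's adjusted p = 0.381) and 0.69 for LPA against vehicle knockouts (95% interval -0.41 to 1.79). Without control 2 and vehicle knockout 3, each vehicle knockout lay below each control. Mean Fos was then 86.7 FPKM in controls, 50.7 FPKM in vehicle knockouts and 59.4 FPKM in LPA knockouts.

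Fosb encodes a FOS subunit that can also occur in a stable truncated form. Its level was 0.772, 2.29 and 3.50 FPKM in controls 2, 4 and 5 (32, 132 and 230 reads). In vehicle knockouts 3, 5, 6 and 7 it was 0.584, 0.201, 0.144 and 0.473 FPKM (24, 13, 11 and 40 reads), and in LPA knockouts 1, 4 and 5 it was 0.316, 0.401 and 0.240 FPKM. Each induced library thus lay below each control library, and the induced groups overlapped. The log2 fold change was -2.25 for vehicle knockouts against controls (standard error 0.62, limma's adjusted p = 0.0902) and -2.24 for LPA knockouts against controls (standard error 0.66, limma's adjusted p = 0.118), neither past the threshold of 0.05. Without control 2 and vehicle knockout 3 the values were -3.08 (limma's adjusted p = 0.0191) and -2.82 (limma's adjusted p = 0.0156), and without control 2 alone they were -2.83 and -2.82 (limma's adjusted p = 0.0489 and 0.0492). Leukocyte genes, which were lower in the same libraries, move with this difference, and their part in it was not tested. In bulk RNA, fewer cells of a type and less RNA per cell cannot be told apart.

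Fosl1 encodes FRA1, a FOS protein without a transactivation domain that is linked to migration and to sustained ERK activity. It had 0, 11 and 13 reads in controls 2, 4 and 5 (0, 0.419 and 0.435 FPKM), and a count of 0 allows up to 3 reads, which in control 2 is 0.272 FPKM for a gene of 1 kb, by counting error only. Vehicle knockouts 3, 5, 6 and 7 had 15, 87, 67 and 41 reads (0.803, 2.96, 1.92 and 1.06 FPKM), and LPA knockouts 1, 4 and 5 had 163, 102 and 38 reads (3.90, 3.45 and 1.67 FPKM). Every induced library lay above every control library, whereas the induced groups overlapped. The log2 fold change was 2.40 for vehicle knockouts against controls (standard error 0.71, limma's adjusted p = 0.115), 0.88 for LPA against vehicle knockouts (95% interval -0.70 to 2.45) and 3.28 for LPA knockouts against controls (standard error 0.76, limma's adjusted p = 0.0546). These sizes depend on the pseudocount at such low reads and ranged, over all alternatives, from 1.01 to 3.59 for the first and from 1.61 to 4.51 for the last, which passed without control 2 and vehicle knockout 3 (2.48, limma's adjusted p = 0.0299).

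Jun and Junb encode JUN subunits, of which JUNB is the weaker activator. Jun was present at 9.14, 32.5 and 34.3 FPKM in controls 2, 4 and 5, at 6.44, 19.0, 20.8 and 25.2 FPKM in vehicle knockouts 3, 5, 6 and 7, and at 20.03, 25.0 and 9.37 FPKM in LPA knockouts 1, 4 and 5. In each group 1 library was far below the others. The groups overlapped, although controls 4 and 5 lay above each induced library. For Jun the log2 fold change was -0.44 (standard error 0.60), 0.072 (standard error 0.60) and -0.37 (standard error 0.64) for vehicle knockouts against controls, LPA against vehicle knockouts, and LPA knockouts against controls. Without control 2 and vehicle knockout 3, mean Jun was 33.4 FPKM in controls, 21.7 FPKM in vehicle knockouts and 18.1 FPKM in LPA knockouts.

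Junb was present at 20.8, 77.6 and 71.5 FPKM in controls 2, 4 and 5 and at 39.9, 83.7, 85.2 and 100.2 FPKM in vehicle knockouts 3, 5, 6 and 7. LPA knockouts 1, 4 and 5 held it at 100.5, 133 and 116 FPKM. In unscaled FPKM each LPA library was above each library of both other groups, which overlapped with each other. After scaling by the median of ratios, LPA knockout 1 lay below vehicle knockout 7. The log2 fold change of Junb was 0.59 for vehicle knockouts against controls (standard error 0.48, limma's adjusted p = 0.564), 0.66 for LPA against vehicle knockouts (95% interval -0.40 to 1.72) and 1.25 for LPA knockouts against controls (standard error 0.51, limma's adjusted p = 0.258). Without control 2 and vehicle knockout 3 these were 0.26, 0.37 and 0.63.

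Ratios between members within a library do not depend on how libraries are scaled. Junb over Jun was 2.27, 2.39 and 2.08 in controls 2, 4 and 5. It was 6.19, 4.41, 4.10 and 3.97 in vehicle knockouts 3, 5, 6 and 7, and 5.02, 5.31 and 12.3 in LPA knockouts 1, 4 and 5. Each induced mouse lay above each control, also among the 8 libraries with many genes detected. The level of Fosl1 was at most 0.565% of that of Fos in controls and between 1.61% and 10.9% in induced mice. Fosb amounted to 1.84%, 3.08% and 3.52% of Fos in controls, to 0.244% to 0.738% in vehicle knockouts 5, 6 and 7, to 3.63% in vehicle knockout 3, and to 0.453% to 0.634% in LPA knockouts. These ratios were chosen after the values had been seen and were not tested.

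**Figure D2:**
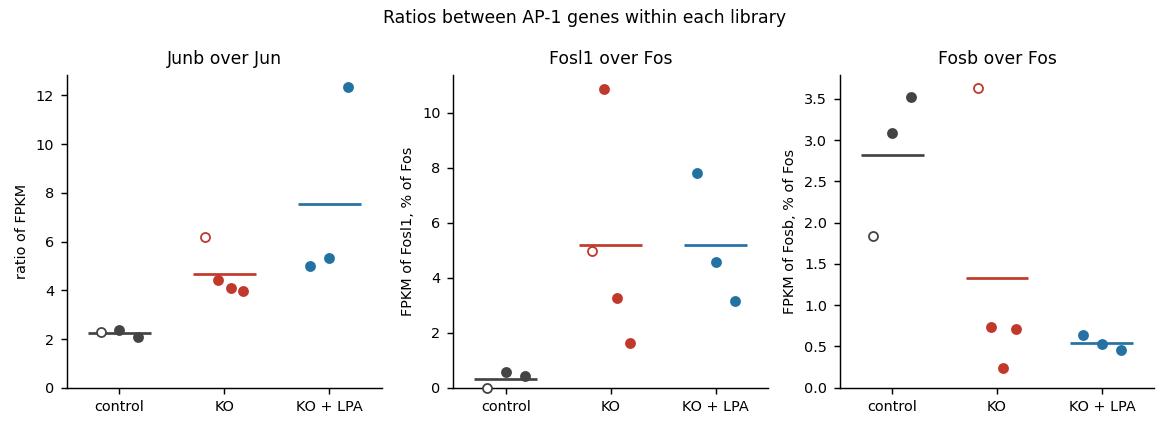
Ratios of FPKM within each library (y axes, linear, from 0): Junb over Jun, and Fosl1 and Fosb as a percentage of Fos. Points are libraries, bars are group means, and open points are control 2 and vehicle knockout 3. Junb over Jun lay between 2.08 and 2.39 in controls and between 3.97 and 12.3 in induced mice.

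Atf3, a stress-induced partner of JUN proteins, was present at 9.08, 26.9 and 28.8 FPKM in controls 2, 4 and 5. Its level was 5.57, 29.3, 30.1 and 38.6 FPKM in vehicle knockouts 3, 5, 6 and 7, and at 26.9, 37.3 and 8.59 FPKM in LPA knockouts 1, 4 and 5. The groups overlapped, and the spread within each was larger than any difference between means (21.6, 25.9 and 24.3 FPKM). The log2 fold changes were 0.12, -0.027 and 0.096 in the order given for Jun, with standard errors of 0.74, 0.74 and 0.79, and the signs of the first and the last changed with the scaling of the libraries. Without control 2 and vehicle knockout 3, mean Atf3 was 27.9 FPKM in controls, 32.7 FPKM in vehicle knockouts and 24.3 FPKM in LPA knockouts.

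Egr1, a zinc finger transcription factor that ERK induces through serum response factor, was the one member that passed an adjusted p of 0.05. The gene stood at 1.57, 1.43 and 1.44 FPKM in controls 2, 4 and 5, at 4.93, 4.70, 2.59 and 2.34 FPKM in vehicle knockouts 3, 5, 6 and 7, and at 6.90, 5.44 and 7.55 FPKM in LPA knockouts 1, 4 and 5. In unscaled FPKM the 3 groups were stacked without overlap, and control 2 and vehicle knockout 3 lay close to other mice of their groups. Scaling by the median of ratios divides the levels of control 2 and vehicle knockout 3 by 0.614 and 0.713. Control 2 then lay above vehicle knockouts 6 and 7, and vehicle knockout 3 above LPA knockouts 1 and 4. The log2 fold change was 2.08 for LPA knockouts against controls (standard error 0.41, limma's adjusted p = 0.0316), a 4.22-fold higher level. It was 1.17 for vehicle knockouts against controls (standard error 0.38, limma's adjusted p = 0.147) and 0.91 for LPA against vehicle knockouts (95% interval 0.063 to 1.76 before adjustment, limma's adjusted p = 1). The call against controls was lost without control 4 or 5, vehicle knockout 6, or LPA knockout 1, 4 or 5 (limma's adjusted p = 0.0538 to 0.137), while the log2 fold change stayed between 1.98 and 2.21. It was also lost after scaling by the median of ratios (1.72, limma's adjusted p = 0.0895) and with edgeR on the reads (1.79, edgeR's adjusted p = 0.0698). Under that scaling Fosl1 was the one member that passed (3.14, limma's adjusted p = 0.0380).

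Klf6, a zinc finger factor of wound repair, was present at 9.77, 42.4 and 35.2 FPKM in controls 2, 4 and 5. Vehicle knockouts 3, 5, 6 and 7 held it at 49.4, 81.1, 71.4 and 52.3 FPKM, and LPA knockouts 1, 4 and 5 at 78.8, 89.5 and 98.2 FPKM. Each induced library was above each control library, and the induced groups overlapped. The log2 fold change was 1.34 for vehicle knockouts against controls (standard error 0.46, limma's adjusted p = 0.161) and 1.85 for LPA knockouts against controls (standard error 0.49, limma's adjusted p = 0.0844). Without control 2 and vehicle knockout 3 these were 0.80 (limma's adjusted p = 0.0836) and 1.19 (limma's adjusted p = 0.0237).

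Ier2, a nuclear immediate early protein, and Ier3, which acts on cell survival and on ERK, were both highest within their groups in control 2 and vehicle knockout 3. Ier2 was present at 60.5, 40.6 and 36.5 FPKM in controls 2, 4 and 5, at 116, 66.8, 42.1 and 43.0 FPKM in vehicle knockouts 3, 5, 6 and 7, and at 64.3, 69.7 and 90.6 FPKM in LPA knockouts 1, 4 and 5. Ier3 was present at 10.6, 6.43 and 7.78 FPKM, at 17.4, 9.74, 7.05 and 6.78 FPKM, and at 12.2, 13.7 and 24.9 FPKM in the same order. For both genes LPA knockouts lay above all controls in unscaled FPKM, and vehicle knockouts overlapped with both other groups. After scaling by the median of ratios, control 2 lay above LPA knockouts 1 and 4 for both genes. In LPA knockouts against controls the log2 fold change was 0.72 for Ier2 (standard error 0.40, limma's adjusted p = 0.404) and 0.98 for Ier3 (standard error 0.44, limma's adjusted p = 0.298). In vehicle knockouts against controls it was 0.45 and 0.22 (standard errors 0.38 and 0.41). Without control 2 and vehicle knockout 3, mean Ier2 was 38.6, 50.6 and 74.9 FPKM in controls, vehicle knockouts and LPA knockouts. Mean Ier3 was then 7.10, 7.86 and 16.9 FPKM in the same order.

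The members did not move as a block across libraries. In each group the library with the highest mitochondrial share (17.4% in control 2, 18.05% in vehicle knockout 3 and 3.50% in LPA knockout 5) had the lowest Jun and Atf3 of its group and the highest Ier2 and Ier3. Over the 10 libraries, log2 levels of Jun and Atf3 had a Pearson correlation of 0.93, those of Ier2 and Ier3 of 0.90, and those of Jun and Ier2 of -0.83. Without control 2 and vehicle knockout 3 these values were 0.80, 0.92 and -0.81 over 8 libraries. Fosl1 and Klf6 had a correlation of 0.95, and of 0.89 over the 8 libraries. The points share the group structure, the depth and the composition of each library, so these are descriptions. The part of the mitochondrial share in the levels was not tested. The genes outside the set whose log2 levels were most like the mean of the members were Sap18, Sar1a, Tpra1, Surf1 and Cstb (Pearson's r of 0.976, 0.970, 0.970, 0.967 and 0.963 over 10 libraries, and 0.833 to 0.919 over 8).

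**Figure D3:**
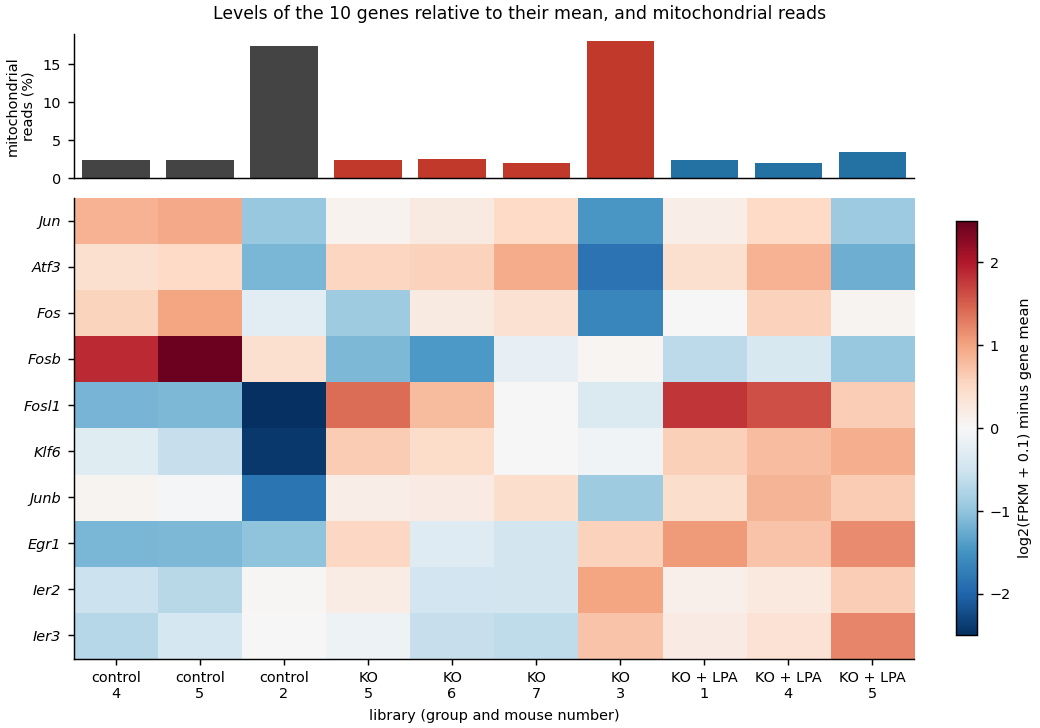
Lower panel, log2(FPKM + 0.1) of each gene (rows) minus its mean over the 10 libraries (columns, by group and mouse number), with red above and blue below the mean. Upper panel, percentage of reads on mitochondrial genes in the same libraries (bars from 0), which reaches 17.4% and 18.05% in the columns of control 2 and vehicle knockout 3, where Jun and Atf3 are low.

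In vehicle knockouts against controls, none of the 10 members passed an adjusted p of 0.05, where 2.01% of the 15729 genes tested passed (177 higher and 139 lower, or 224 higher and 374 lower after scaling by the median of ratios). In unscaled FPKM the groups did not overlap for 4 members, Fosl1, Egr1 and Klf6 being higher and Fosb lower in vehicle knockouts, against 17.2% of all genes. Of these, Egr1 overlapped after scaling by the median of ratios. At an unadjusted p under 0.05 limma counted 2764 genes, or 17.6%, and those 4 members were among them. The median log2 fold change of the members was 0.34, beside 0.29 over all genes tested, a median of all genes that scaling by the median of ratios brought to 0.039 (and that of the members to 0.05). On the recovered reads edgeR called 0 members (and 2.82% of all genes), and DESeq2 called Fosb and Fosl1 (DESeq2's adjusted p = 0.00207 and 0.00678) among 11.6% of all genes.

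In LPA against vehicle knockouts, no member and no other gene passed an adjusted p of 0.05 by limma (0% of genes, and 2.92%, or 459 genes, at an unadjusted p under 0.05). By edgeR 0 genes passed and by DESeq2 7, no member among them, but with Mmp10 and Lyz2 of the lists below. In unscaled FPKM, Junb and Egr1 did not overlap between these groups, both higher in LPA knockouts, where 4.16% of all genes did not overlap in either direction and 3.56% were higher without overlap. Both members overlapped after scaling by the median of ratios. Of the 10 members 9 had a positive log2 fold change, against 60.7% of all genes, and their median was 0.58 beside 0.11 for all genes. Without control 2 and vehicle knockout 3 the count was 8 of 10, against 41.5% of all genes, and the medians were 0.38 and -0.11. After scaling by the median of ratios the count was 7 of 10, against 54.3% of all genes, and the medians were 0.50 and 0.042.

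In LPA knockouts against controls, Egr1 alone of the members passed an adjusted p of 0.05, as did 2.32% of all genes (243 higher and 122 lower, or 221 higher and 268 lower after scaling by the median of ratios). In unscaled FPKM, groups did not overlap for 7 members, Fosl1, Junb, Egr1, Ier2, Ier3 and Klf6 being higher and Fosb lower in LPA knockouts, against 26.9% of all genes. Of these, Ier2 and Ier3 overlapped after scaling by the median of ratios. At an unadjusted p under 0.05 limma counted 2582 genes, or 16.4%. Without control 2 and vehicle knockout 3, Fosb, Fosl1, Egr1 and Klf6 passed, where 8.56% of all genes did. This comparison shares its LPA and control libraries with the others. The summed unscaled level of the 10 members was 164 to 319 FPKM in controls, 257 to 336 FPKM in vehicle knockouts and 364 to 453 FPKM in LPA knockouts. Junb, Ier2, Klf6 and Fos, the most abundant members, weigh most in this sum. After scaling by the median of ratios, the sum of LPA knockout 1 lay below those of controls 4 and 5 and vehicle knockouts 3 and 7.

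**Figure D4:**
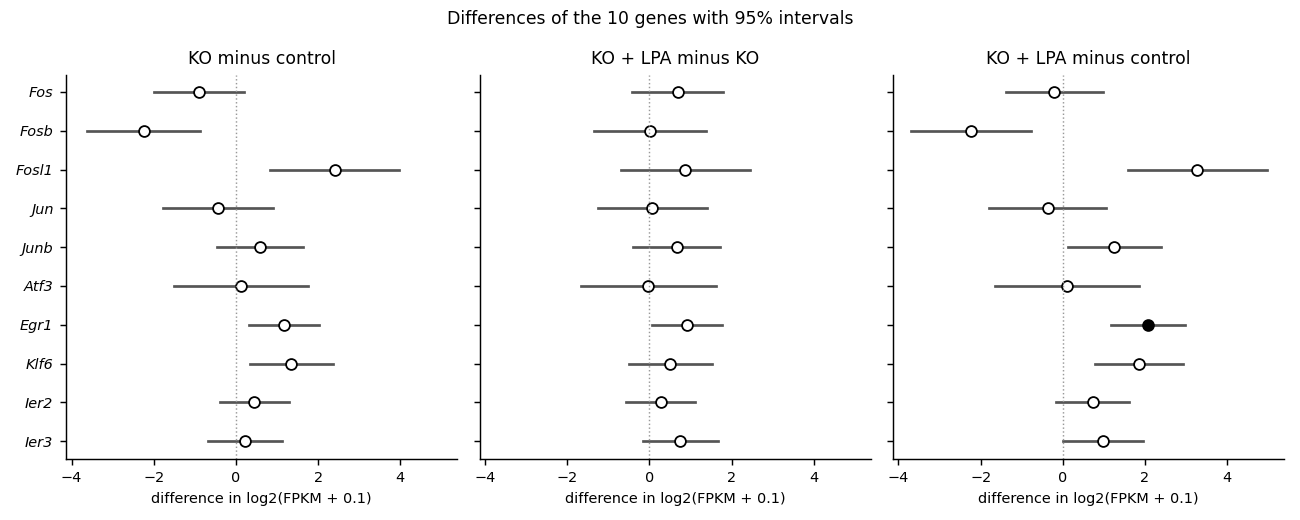
Difference in log2(FPKM + 0.1) of the 10 genes in the 3 comparisons (x axis), as limma's estimate with its unadjusted 95% interval. The filled point marks the one value past an adjusted p of 0.05, Egr1 for LPA knockouts against controls, at 2.08.

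Other AP-1 genes were examined as a list of 14, of which 13 were tested. None passed an adjusted p of 0.05 in any comparison, and their median log2 fold change for vehicle knockouts against controls was 0.091, with 7 of 13 higher (63.4% of all genes). The most abundant was Jund, a JUN subunit, at 59.8 to 556 FPKM over the libraries, and its 3 highest libraries were control 2, vehicle knockout 3 and LPA knockout 5. Fosl2, a FOS subunit, had 11.5 to 28.5 FPKM and a log2 fold change of 0.30 (standard error 0.32). Batf3 and Maf, which leukocytes also express, had values of -2.17 and -2.01 (limma's adjusted p = 0.341 and 0.0840). Maf passed without control 2 and vehicle knockout 3, both for vehicle knockouts (-1.89, limma's adjusted p = 0.0231) and for LPA knockouts (-1.82, limma's adjusted p = 0.0181) against controls. With LPA the largest values against vehicle knockouts were those of Batf (1.46), Batf3 (1.26) and Jund (0.66).

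Of 32 other immediate early genes 28 were tested, and none passed an adjusted p of 0.05 in any comparison. In vehicle knockouts against controls 18 of 28 were higher (63.4% of all genes), with a median of 0.20. Plk3 (2.00), Ier5l (-1.41) and Dusp1 (1.29) had the largest values. Under LPA 27 of 28 were higher than in vehicle knockouts (60.7% of all genes), with a median of 0.49, and 19 of 28 without control 2 and vehicle knockout 3 (41.5% of all genes). The largest values were those of Cyr61 (2.39), Klf2 (1.84) and Ier5l (1.69). Dusp1, a phosphatase that ends MAP kinase activity, was present at 1.14, 6.32 and 6.10 FPKM in controls, at 5.69, 11.5, 10.1 and 9.22 FPKM in vehicle knockouts and at 13.2, 17.2 and 16.2 FPKM in LPA knockouts, so that each LPA library was above all others. Dusp1 and Trib1, which encodes a pseudokinase, passed for LPA knockouts against controls without control 2 and vehicle knockout 3 (1.30 and 0.86, limma's adjusted p = 0.0121 and 0.0434).

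Heat shock genes, which respond to other forms of cell stress, had no shared direction in vehicle knockouts against controls. All 14 were tested, 7 were higher and 7 lower in vehicle knockouts than in controls (63.4% of all genes were higher), and their median was -0.024. Hspd1, the mitochondrial chaperonin, was the one that passed, at 97.2 to 143 FPKM in controls and 252 to 397 FPKM in vehicle knockouts (log2 fold change 1.40, limma's adjusted p = 0.0427). By edgeR Hspd1 did not pass. The inducible chaperone gene Hspa1a was present at 0.549, 4.23 and 3.52 FPKM in controls, at 0, 0.098, 0.495 and 4.42 FPKM in vehicle knockouts and at 0.138, 0.370 and 0.126 FPKM in LPA knockouts (-2.17 between the first groups, limma's adjusted p = 0.376). Hspb1 had -1.10. No more than 4 of 14 heat shock genes were higher in LPA than in vehicle knockouts (60.7% of all genes), with a median of -0.29. Without control 2 and vehicle knockout 3, 2 of 14 were higher (41.5% of all genes). None passed, with values of 2.00 for Hspb1, -0.79 for Hsph1 and -0.71 for Hspa1a. Against controls, none of the 14 passed in LPA knockouts, but Dnajb4 did without control 2 and vehicle knockout 3 (-1.35, limma's adjusted p = 0.0454).

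The kinases and adaptors of the MAP kinase chain were examined as 25 genes, all tested. Of these 19 were higher in vehicle knockouts than in controls (63.4% of all genes) and none passed, with a median of 0.41 and the largest values for Braf (1.85), Elk3 (-1.61) and Elk1 (1.12). After scaling by the median of ratios 14 of 25 were higher, against 51.9% of all genes. Between vehicle and LPA knockouts 19 of 25 were higher with LPA, or 9 of 25 without control 2 and vehicle knockout 3 (60.7% and 41.5% of all genes), and Elk3 (1.02), Egfr (0.75) and Map3k1 (0.51) had the largest values. After scaling by the median of ratios 12 of 25 were higher with LPA, against 54.3% of all genes. None passed for LPA knockouts against controls, except Egfr and Nras without those libraries (1.37 and 1.07, limma's adjusted p = 0.0451 and 0.0146).

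Genes that ERK itself induces, several of which feed back to restrain it, were all higher in vehicle knockouts than in controls. Of 13 such genes, all tested, 13 had a positive log2 fold change for vehicle knockouts against controls, against 63.4% of all genes, and their median was 1.49. The ETS factors Etv4 (3.60, limma's adjusted p = 0.0146) and Etv5 (3.01, limma's adjusted p = 0.0448) and the receptor tyrosine kinase inhibitor Spry4 (2.80, limma's adjusted p = 0.0243) rose. Unlike Etv4 and Spry4, Etv5 did not pass by edgeR. Etv4 was present at 0.945, 0.624 and 0.334 FPKM in controls, at 11.6, 16.9, 6.44 and 3.72 FPKM in vehicle knockouts and at 12.5, 5.55 and 11.8 FPKM in LPA knockouts. All 13 kept the positive sign after scaling by the median of ratios and without control 2 and vehicle knockout 3, where their medians were 1.21 and 1.29. LPA knockouts had 9 of 13 higher than vehicle knockouts (60.7% of all genes), with a median of 0.17. Without those libraries the count was 6 of 13 (41.5% of all genes) and the median -0.015. Dusp5 (0.97), Phlda1 (0.77) and Dusp7 (-0.62) had the largest values. Etv4, Spry4 and Phlda1 rose in LPA knockouts against controls (3.78, 2.88 and 2.26, limma's adjusted p = 0.0126, 0.0234 and 0.0482). Phlda1 did not pass after scaling by the median of ratios or by edgeR, although it did by DESeq2. With control 2 and vehicle knockout 3 left out, Spry1 and Spred1 also passed for vehicle knockouts against controls (1.51 and 1.82, limma's adjusted p = 0.0402 and 0.0391), and Dusp5, Spry1 and Etv5 for LPA knockouts against controls (1.55, 1.81 and 2.20, limma's adjusted p = 0.0215, 0.0176 and 0.0375).

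Of 22 genes often described as AP-1 targets 20 were tested, and 11 of 20 were higher in vehicle knockouts than in controls (63.4% of all genes), with a median of 0.020. Plaur, the urokinase receptor, and Areg and Ereg, both ligands of the EGF receptor, rose by 4.03, 3.64 and 4.999 on the log2 scale (limma's adjusted p = 0.000292, 0.00129 and 0.00129). Plaur was present at 1.17, 2.00 and 1.72 FPKM in controls, at 27.6, 29.6, 21.5 and 32.4 FPKM in vehicle knockouts and at 51.4, 81.1 and 55.5 FPKM in LPA knockouts. Areg was present at 12.5, 19.9 and 17.3 FPKM, at 130.5, 341, 188 and 204 FPKM and at 342, 531 and 426 FPKM in the same order. Neither gene overlapped between any pair of groups. Ereg had 0.044, 0.141 and 0.428 FPKM in controls and 5.36 to 12.2 FPKM in vehicle knockouts, below all LPA knockouts (13.5 to 18.1 FPKM). After scaling by the median of ratios, Ereg in vehicle knockout 3 lay above LPA knockout 1.

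Of these targets, 18 of 20 were higher in LPA than in vehicle knockouts (60.7% of all genes), with a median of 0.93. Without control 2 and vehicle knockout 3 the count was 16 of 20 (41.5% of all genes), with a median of 1.01. None passed by limma. DESeq2 on the recovered reads called Mmp10 (5.91, DESeq2's adjusted p = 0.0110), among 0.0445% of all genes. For vehicle knockouts against controls DESeq2 called Mmp10 and Mmp13 lower (-3.69 and -3.75, DESeq2's adjusted p = 0.0397 and 0.0322). Plaur, Areg and Ereg were called higher there, among 11.6% of all genes. The matrix protease gene Mmp10 had the largest value (4.72, standard error 0.88, limma's adjusted p = 1), with 0, 0.067, 0 and 0.284 FPKM in vehicle knockouts and 1.26, 9.11 and 5.85 FPKM in LPA knockouts, beside 1.79, 0.264 and 0.199 FPKM in controls, and Il1rl1 and Plau had 2.32 and 2.17. Il1rl1 and Plau stood at 0.254 and 0.453 FPKM in LPA knockout 1, at 1.54 and 1.38 FPKM in LPA knockout 4 and at 1.36 and 4.90 FPKM in LPA knockout 5. Among LPA knockouts, the summed marker genes of stroma, muscle and endothelium and of enteric nerve and glia were also lowest in LPA knockout 1. Their part in these values was not tested. Against controls, Plaur, Areg, Ereg and Cd44, the hyaluronan receptor, rose in LPA knockouts (5.18, 4.70, 5.96 and 1.92). Cd44 was near the threshold (limma's adjusted p = 0.0471). Unlike the others, it did not pass after scaling by the median of ratios, by edgeR or by DESeq2. With the same libraries left out, Mmp10 and Il1rl1 also passed for LPA knockouts against controls (3.67 and 3.02, limma's adjusted p = 0.0449 and 0.0390), and Cd44 for vehicle knockouts (1.86, limma's adjusted p = 0.0269).

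**Figure D5:**
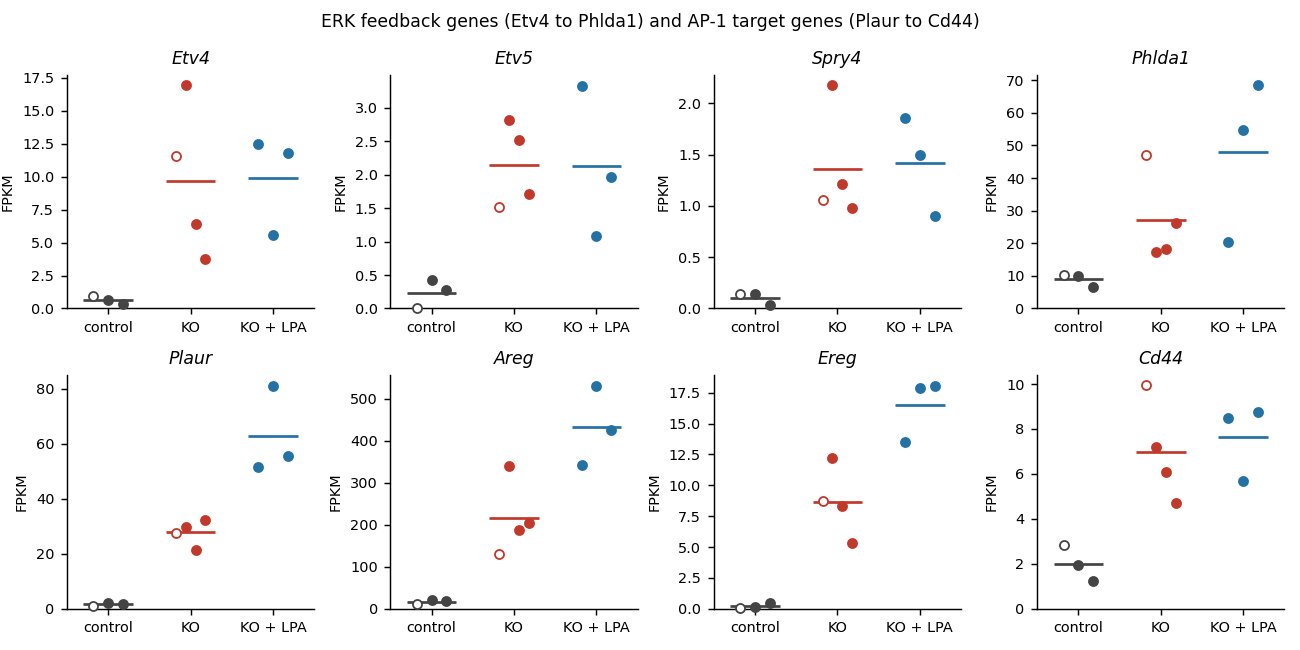
FPKM (y axis, linear, from 0) of 4 ERK-induced genes (upper row) and 4 AP-1 target genes (lower row) that passed an adjusted p of 0.05 in at least 1 comparison with controls. Points are libraries, bars are group means, and open points are control 2 and vehicle knockout 3. Plaur lay between 1.17 and 2.00 FPKM in controls and between 21.5 and 81.1 FPKM in induced mice.

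The receptors through which LPA acts were low to moderate. Lpar1, which couples to several G proteins, was present at 6.92, 11.6 and 12.5 FPKM in controls, 1.39, 6.45, 5.17 and 4.87 FPKM in vehicle knockouts and 4.64, 5.86 and 5.30 FPKM in LPA knockouts. Each induced library was below each control library (-1.34 for vehicle knockouts against controls, limma's adjusted p = 0.199). Lpar5, abundant in the gut epithelium, ranged from 0.257 FPKM in LPA knockout 5 to 16.9 FPKM in vehicle knockout 6, and Lpar2 and Lpar6 had at most 0.881 FPKM in any library. Of the 22 genes tested for LPA receptors and their coupling, 12 were higher in vehicle knockouts than in controls (63.4% of all genes). In LPA against vehicle knockouts 14 were higher (60.7% of all genes), or 5 without control 2 and vehicle knockout 3 (41.5% of all genes). None passed by limma on all libraries without scaling, but without those libraries Lpar1 did for vehicle knockouts (-1.13, limma's adjusted p = 0.0349) and for LPA knockouts (-1.19, limma's adjusted p = 0.0216) against controls. With all libraries, Lpar1 also passed for vehicle knockouts against controls after scaling by the median of ratios (-1.63, limma's adjusted p = 0.0362). It did so by edgeR (-1.53, edgeR's adjusted p = 0.0459) and by DESeq2 (-1.57, DESeq2's adjusted p = 0.000279). These settings called 3.8%, 2.82% and 11.6% of all genes. DESeq2 also called Lpar2 in that comparison, and Lpar1 for LPA knockouts against controls. Lpar3 and Plpp3 had -1.89 and 1.36 in the first comparison, and Lpar5, Arhgef11 and Enpp2 had -1.54, -1.20 and 0.97 in the second.

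The 17 targets of MRTF and serum response factor, a route from LPA through actin, were all tested and none passed in any comparison, although Flna and Cnn2, which encode actin-binding proteins, did for LPA knockouts against controls without control 2 and vehicle knockout 3 (1.55 and 1.16, limma's adjusted p = 0.0406 and 0.0477). In vehicle knockouts against controls 11 of 17 were higher (63.4% of all genes), with a median of 0.30 and the largest values for Myl9 (-1.83), Vcl (1.61) and Acta2 (-1.27). With LPA, 15 of 17 were higher than in vehicle knockouts (60.7% of all genes), with a median of 0.49, and 13 of 17 without control 2 and vehicle knockout 3 (41.5% of all genes). Besides Cyr61, which is also counted among the immediate early genes, Ctgf (1.43) and Ankrd1 (1.20) had the largest values. Both were at or under 0.241 FPKM in the mean of vehicle knockouts. Cyr61, Ctgf and Ankrd1 were at 0.967, 0.0656 and 0.0232 FPKM in LPA knockout 1, at 2.17, 0.859 and 0.753 FPKM in LPA knockout 4 and at 2.66, 2.23 and 0.893 FPKM in LPA knockout 5. In the same libraries the marker genes of stroma, muscle and endothelium summed to 13.2, 21.5 and 22.7 FPKM and those of enteric nerve and glia to 3.23, 17.7 and 19.4 FPKM, and their part in these values was not tested. Acta2 and Tagln stand in both the target list and the stromal list.

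Markers of cells that the preparation could hold moved with some of these results. Of 20 leukocyte genes 19 were tested, and 16 of 19 were lower in vehicle knockouts than in controls (median -1.95), where 63.4% of all genes were higher. Cd52, Cd79a and Gzma fell, of which Cd52 did not pass by edgeR. LPA knockouts held 13 of 19 at a higher level than vehicle knockouts (60.7% of all genes) and none passed by limma, while DESeq2 called Lyz2 (3.00, DESeq2's adjusted p = 0.000204). For LPA knockouts against controls Cd3g and Gzma fell. Ptprc, which marks all leukocytes, was present at 0.158 to 3.39 FPKM and at 0 in no library. The epithelial genes Krt18 and Krt19 rose for LPA knockouts against controls (limma's adjusted p = 0.0316 and 0.0483). Neither passed after scaling by the median of ratios, by edgeR or by DESeq2. None of the 12 epithelial genes passed in the other comparisons. Krt18 passed without control 2 and vehicle knockout 3 for both induced groups against controls (1.63 and 2.71), and Cdh1 for LPA knockouts (0.85). In the same setting the leukocyte genes that passed were Cd52, Cd79a and Tyrobp for vehicle knockouts and Cd3g and Gzmb for LPA knockouts, all lower.

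Over all genes, 63.4% were higher in vehicle knockouts than in controls and 60.7% in LPA than in vehicle knockouts. Stromal, muscle and endothelial genes (14 of 18 tested) were mostly lower in vehicle knockouts than in controls (11 of 14, none passed) and 12 of 14 were higher in LPA than in vehicle knockouts. Their summed level was 8.36 to 16.5 FPKM in controls, 9.70 to 16.0 FPKM in vehicle knockouts and 13.2 to 22.7 FPKM in LPA knockouts, with Col1a1 at 0.873 FPKM or less in each library. Enteric nerve and glia genes (5 of 8 tested) summed to 1.25 to 2.67, 2.56 to 6.03 and 3.23 to 19.4 FPKM, and all 5 were higher in LPA than in vehicle knockouts. The glial gene Sox10 was at 0 in 6 libraries and at 0.553 FPKM in LPA knockout 5. Red blood cell genes (4 of 5 tested) summed to 1.07 to 78.3 FPKM in controls and 2.53 to 20.1 FPKM in induced mice. None of the stromal, nerve or red blood cell genes passed by limma in any comparison with all libraries. DESeq2 on the recovered reads called Lyve1, Ret and Hba-a1 for vehicle knockouts against controls, among 11.6% of all genes. For LPA knockouts against controls it called Dcn, S100b, Ret and Tubb3, among 9.47% of all genes. The endothelial gene Plvap (2.69, limma's adjusted p = 0.0302) and the enteric nerve gene Ret (1.87, limma's adjusted p = 0.0322) passed for LPA knockouts against controls without control 2 and vehicle knockout 3. The part of these cells in the levels of the 10 members was not tested.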

How the data were processed

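Poly(A) RNA of jejunal epithelial cells from 10 mice was sequenced. The authors deposited FPKM per gene, and read counts for the 9 genes of 1 comparison list. Per the submitters' processing notes the tools were STAR 2.5, TopHat, HTSeq 0.6.1 and DESeq2 on GRCm38 (mm10). The strand setting is not given in the sources used here. Columns of the authors' fold changes and p-values, and their KEGG enrichment tables, were not used.

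Values were taken as log2(FPKM + 0.1), and the 15729 genes were tested that averaged 0.1 FPKM or more. One linear model of all 10 libraries in 3 groups was fitted with limma 3.58.1 (R 4.3.3) and a variance trend. Its tests were two-sided, and p-values were adjusted over all genes tested by the Benjamini-Hochberg method, with a threshold of 0.05. Genes said to pass did so in this model unless another setting is named. Fold changes are therefore on the log2(FPKM + 0.1) scale, which understates those of low genes. Overlap of groups was judged on unscaled FPKM, for members and for all genes, unless scaling is named. Multiplied by gene length, 100% of FPKM values were whole multiples of a single step within 0.01 reads, and 63 of 63 deposited counts equalled the recovered reads. edgeR 4.0.16 (which called 443, 0 and 377 genes in the 3 comparisons) and DESeq2 1.42.0 were run on these reads as alternatives. Only Jun shares sequence with another gene, its antisense gene Junos, which had 0.99% as many reads. Of the 10 members, 5 have identical coordinates in GENCODE M21.

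The labels name no batch. Per the study's methods the crosses gave littermate controls, but which of the 10 mice shared a litter is not given, so p-values measure the spread between these mice. Replicates of a group differed by more than counting noise. The members, the gene lists and the alternatives were chosen with earlier results of these data known. The genes named are all members, the genes of each list past the threshold, the 3 of each list with the largest absolute log2 fold change in each of the first 2 comparisons, and the 5 genes most like the members' mean. One gene that this rule names is not reported here. Jund, Fosl2, Dusp1, the LPA receptors and cell markers beyond that rule, and genes that passed only without control 2 and vehicle knockout 3 were added after their values were seen.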

Additional observations from a re-analysis of the deposited data

Results flagged for a closer look

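Of 40 sets of values in the vehicle knockouts, 7 had a single library far from the other 3 by Dixon's criterion at 95%, which chance meets in about 1 of 20 groups. In vehicle knockout 3, Fosb amounted to 3.63% of the level of Fos, against 0.244% to 0.738% in vehicle knockouts 5, 6 and 7 and 1.84% to 3.52% in controls. The same library detected 12601 genes (18233 to 18267 in the other 3) and had 18.05% of its reads on mitochondrial genes (2.06% to 2.53%). Its summed level was 342 FPKM for the other immediate early genes (682 to 742), 384 FPKM for the genes of LPA receptors and their coupling (930 to 975) and 12.7 FPKM for the red blood cell genes (2.53 to 3.76). In vehicle knockout 7 the genes of stroma, muscle and endothelium summed to 16.0 FPKM (9.70 to 10.6 in the others).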

How the results depend on the processing

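Every direction of Egr1, Klf6 and Fosl1 held in all alternatives of the 3 comparisons, and so did those of Fosb against controls, but calls were unstable. With control 2 and vehicle knockout 3 the spread was wide, low reads limit Fosb and Fosl1, and a single library can decide whether a member passes. The cause of each move was not tested. In vehicle knockouts against controls 316 genes and 0 members passed. Genes numbered 188 without a filter, 598 after median-ratio scaling, 804 after quantile normalization, 50 with only the 2 groups fitted, 778 without the 2 libraries with few detected genes, 2449 with a covariate for them, 1830 by DESeq2, and 44 (without control 5) to 403 (without vehicle knockout 3) with a mouse left out. Members numbered 2 after quantile normalization, 1 without the 2 libraries, 4 with the covariate, 2 by DESeq2, and 0 to 1 with a mouse left out. In LPA against vehicle knockouts 0 genes passed, except 7 by DESeq2. In LPA knockouts against controls 365 genes and 1 member passed. Genes numbered 626 after quantile normalization, 190 with only the 2 groups fitted, 1346 without the 2 libraries, 1800 with the covariate, 1489 by DESeq2, and 73 (without LPA knockout 5) to 702 (without vehicle knockout 3) with a mouse left out. Members numbered 2 with a pseudocount of 1, 3 after quantile normalization, 0 with only the 2 groups fitted, 4 without the 2 libraries, 6 with the covariate, 0 by edgeR, 4 by DESeq2, and 0 to 2 with a mouse left out.

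A replicate block on mouse numbers 4 and 5, the numbers both groups carry, left 0 genes and 0 members for LPA knockouts against controls (Egr1 2.08, limma's adjusted p = 0.155) on 4 libraries. Nothing says that the numbers pair the mice. No paired analysis was possible for the other comparisons because the groups share 1 number at most, apart from LPA knockouts and controls.

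Signs turned for values near 0. In vehicle knockouts against controls Atf3 was -0.17 after median-ratio scaling, -0.019 after quantile normalization, -0.051 with the covariate, -0.035 by DESeq2, -0.41 without control 2, -0.039, -0.052 and -0.17 without vehicle knockout 5, 6 and 7, and 0.75 at most, without vehicle knockout 3. Ier3 was -0.063 and -0.060 under the scalings and -0.064 without vehicle knockout 3 (up to 0.42 with another mouse left out), and Junb was -0.027 without control 2 (up to 0.92). In LPA against vehicle knockouts Fosb was -0.022 with a pseudocount of 1, -0.089 and -0.40 under median-ratio scaling and quantile normalization, -0.069 with the covariate, -0.32 by edgeR, -0.35 by DESeq2, -0.14 and -0.25 without vehicle knockout 5 and 6, and -0.13 without LPA knockout 4 (up to 0.25 with another mouse left out). Jun was -0.0082 and -0.0084 under the scalings, -0.36 without the 2 libraries, -0.37 with the covariate, -0.36 without vehicle knockout 3, and -0.056 and -0.22 without LPA knockout 1 and 4 (up to 0.49). Atf3 was 0.13, 0.15 and 0.27 without vehicle knockout 5, 6 and 7 and 0.60 without LPA knockout 5 (down to -0.66 without vehicle knockout 3). Ier2 was -0.031 by edgeR and -0.082 by DESeq2. In LPA knockouts against controls Fos was 0.066 without control 5 (down to -0.56 with another mouse left out) and Jun 0.045 without LPA knockout 5 (down to -0.99). Atf3 was -0.28 and -0.17 under the scalings, -0.44 without the 2 libraries and without control 2 alone, -0.60 with the covariate, -0.098 and -0.33 without LPA knockout 1 and 4 (up to 0.72 without LPA knockout 5), -0.63 with the replicate block, -0.068 by edgeR and -0.099 by DESeq2.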
